A study of Mus musculus with 6 samples.

Results

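The collagen genes of the mouse liver were described in animals kept on chow with polypropylene microplastic (PP-MP) and in animals kept on normal chow (control). Collagens were taken as every gene whose symbol is Col, a type number, the letter a and a chain number, which gave 44 of the 56674 rows of the count table. They were grouped as fibrillar (11 genes), basement membrane (6 genes of type IV) and other collagens (27 genes). Both diets were given to male C57BL/6 mice, an inbred laboratory strain, that were 71 weeks old, and RNA of the liver was sequenced from 3 PP-MP and 3 control libraries. The comparison asks how the liver transcriptome of old mice differs after long PP-MP feeding. Grouping was by library title, because the protocol text speaks of PS-MP throughout. No source used here gives dose, particle size or when feeding began, and nothing says that the libraries of a diet came from separate animals, so p-values measure the spread between these libraries, which may be technical.

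Collagens are the main structural proteins of the extracellular matrix, built from chains with long runs of a glycine-led triplet that wind into a triple helix. Fibrillar collagens such as types I, III and V form the fibres that accumulate in liver scarring. Type IV collagen forms the sheet of basement membranes, and other collagens decorate fibrils, form beaded filaments or carry proteoglycan chains. In the liver, hepatic stellate cells and portal fibroblasts are the best known producers of fibrillar collagen, while hepatocytes are known to make type XVIII collagen, the precursor of the angiogenesis inhibitor endostatin.

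The start regions of 3 collagen genes are shown because Col3a1 and Col4a1 had the highest counts per kilobase of their classes, and because Col4a2 is the head-to-head neighbour of Col4a1 and its partner in the type IV trimer. Col4a2 was added after its values were seen. Each window runs from 250 bases before to 50 bases after the annotated start, 5′ to 3′ on the strand of the gene, from RefSeq on GRCm38.p6. In Col3a1 (chr1:45311288-45311587, plus strand) capitals mark the letters TATAAA. In Col4a1 (chr8:11312777-11313076, minus strand) and Col4a2 (chr8:11312555-11312854, plus strand) capitals mark the 78 bases that lie in both windows.
Col3a1: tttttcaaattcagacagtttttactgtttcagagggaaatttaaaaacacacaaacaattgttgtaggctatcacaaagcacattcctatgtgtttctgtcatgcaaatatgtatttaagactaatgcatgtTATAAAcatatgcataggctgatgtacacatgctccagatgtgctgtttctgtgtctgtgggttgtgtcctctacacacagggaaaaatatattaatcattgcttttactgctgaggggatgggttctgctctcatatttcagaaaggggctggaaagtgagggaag
Col4a1: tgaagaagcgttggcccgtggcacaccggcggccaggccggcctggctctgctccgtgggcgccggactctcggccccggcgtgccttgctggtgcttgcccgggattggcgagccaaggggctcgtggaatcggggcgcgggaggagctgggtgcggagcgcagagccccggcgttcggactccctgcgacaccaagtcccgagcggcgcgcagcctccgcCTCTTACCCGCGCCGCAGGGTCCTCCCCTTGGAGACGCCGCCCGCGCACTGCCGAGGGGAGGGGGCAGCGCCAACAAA
Col4a2: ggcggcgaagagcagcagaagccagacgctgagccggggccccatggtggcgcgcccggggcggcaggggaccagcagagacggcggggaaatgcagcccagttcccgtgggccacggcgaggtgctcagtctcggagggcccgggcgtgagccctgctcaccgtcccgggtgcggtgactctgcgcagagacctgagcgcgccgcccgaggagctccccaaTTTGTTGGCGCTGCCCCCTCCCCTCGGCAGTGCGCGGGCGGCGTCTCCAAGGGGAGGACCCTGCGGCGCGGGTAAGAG
The starts of Col4a1 and Col4a2 lay 21 bases apart on opposite strands. The motifs searched on both strands were the TATA box as TATAAA, the CCAAT box as CCAAT and the GC box as GGGCGG, and no match overlapped another in these windows. The Col3a1 window held 1 TATAAA, 117 bases before the start, and neither of the other motifs, with a GC content of 37.7%. The Col4a1 window held 1 CCAAT and 1 GGGCGG, both on the reverse strand, and no TATAAA, with a GC content of 74.0%. The Col4a2 window held 1 CCAAT and 3 GGGCGG. Of 32851 RefSeq windows of the same length, 13.6% held TATAAA, 37.4% CCAAT and 35.7% GGGCGG. The 38 windows of the 35 collagens with an entry held them in 13.2%, 34.2% and 60.5%.

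Libraries held 81073738 to 100252360 counts in PP-MP and 68357478 to 112566641 in control. The 18S ribosomal RNA gene took at most 0.750% of the counts in a PP-MP library, against 1.15% to 11.2% in control libraries, with control 2 the highest. A count was seen for 25009 to 25914 genes in PP-MP and 23095 to 23872 in control. Hepatocyte markers were abundant in every library, with albumin (Alb) at 47000 to 58000 CPM (read counts scaled to library size with TMM factors) in PP-MP and 47400 to 56500 CPM in control.

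No collagen gene passed the test between the diets. Of the 44 genes, 32 passed the filter on low counts, 17 of them with a mean of at least 1 CPM over the 6 libraries, and 12 did not pass. With edgeR's quasi-likelihood test and Benjamini-Hochberg adjustment over 18284 genes, 0 of the 32 had an adjusted p under 0.05 (smallest adjusted p = 0.332), where 0.0109% of all genes tested did. DESeq2 and limma-voom also called 0 collagens, against 4.25% and 0.00547% of all genes. At an unadjusted edgeR p under 0.05 there was 1 collagen, Col25a1, which was higher, and 13.9% of all genes, 8.05% higher and 5.81% lower. Fitted values were above 0 for 27 of the 32 collagens and for 52.6% of all genes tested. The 27 included all 15 tested collagens with means below 1 CPM, a level at which 66.0% of all genes tested were above 0. A gene that low can pass the filter through the higher group alone. Among the 17 collagens with a mean of at least 1 CPM, 12 had a fitted value above 0 and 5 below. Of the 12660 tested genes of that level, 46.7% had a fitted value above 0. The median log2 fold change was 0.06 over these collagens and −0.03 over the 12660 genes. A 2-fold change in either direction lay outside the 95% interval for 8 of the 32 collagens, each with a mean of at least 1 CPM, and for 46.3% of all genes tested. The values are from bulk liver, in which fewer cells of a type and less RNA per cell cannot be told apart.

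**Figure D1:**
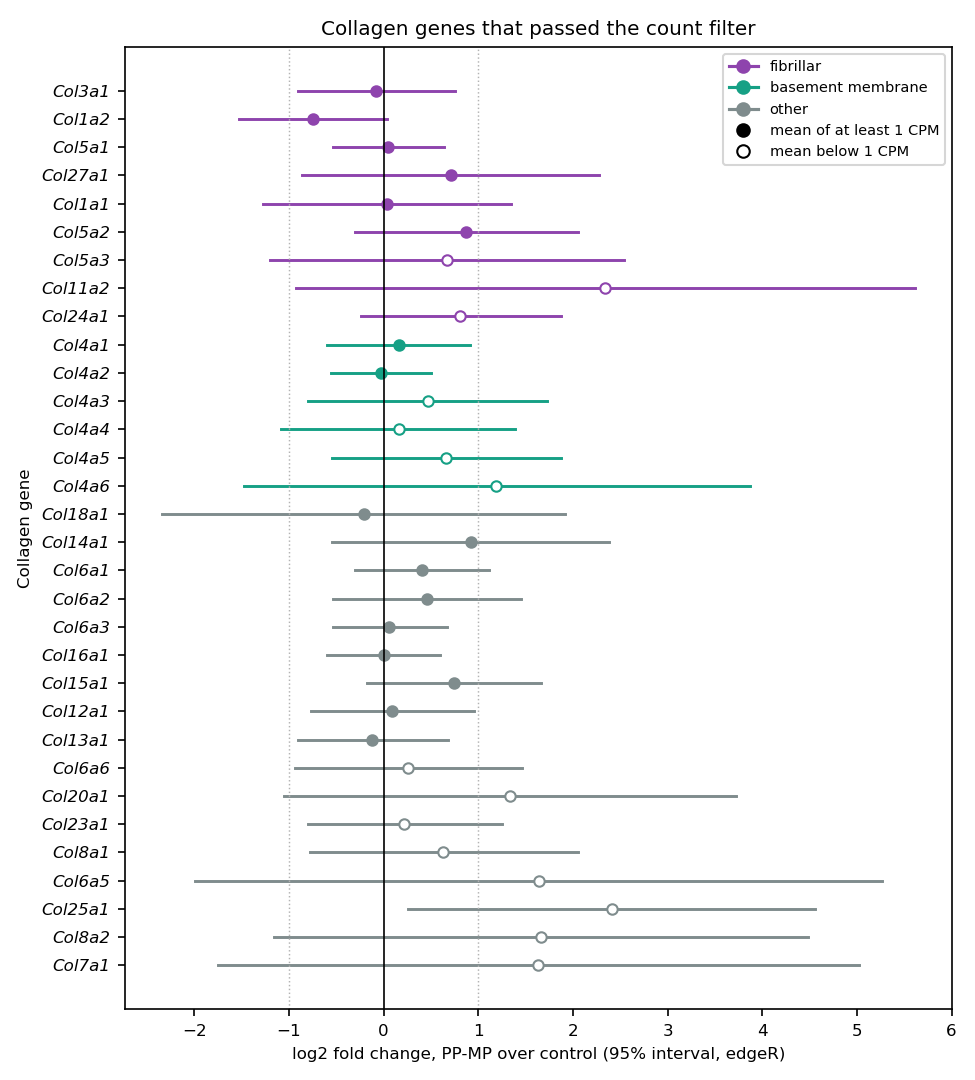
Log2 fold change of PP-MP over control (x axis) for the 32 collagen genes that passed the filter (y axis), grouped by class and ordered by level, with the 95% interval of the edgeR fit as a bar. Filled points have a mean of at least 1 CPM and dotted lines mark a 2-fold change. The widest intervals are among the low genes, but that of Col18a1, the highest gene, is also wide, −2.34 to 1.92. The bar of Col25a1 alone, 0.26 to 4.56, does not cross 0.

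Among the fibrillar collagens, Col3a1, the chain of type III collagen, had the highest level per exon length, 1.78 CPM per kilobase over the 6 libraries. It was at 23.7, 18.4 and 9.09 CPM in PP-MP 1, 2 and 3, against 20.8, 18.4 and 14.7 CPM in control 1, 2 and 3. The groups overlapped fully, with the highest and the lowest value both in PP-MP libraries. Its log2 fold change was −0.08 (SE 0.35, 95% interval −0.90 to 0.75, edgeR adjusted p = 0.939).

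Type I collagen, the main fibre of scar and bone, is built from the Col1a1 and Col1a2 chains, and these differed in how the libraries ranked. Col1a1 was at 7.87, 5.04 and 1.48 CPM in PP-MP 1, 2 and 3, against 5.55, 4.01 and 4.42 CPM in control. Its mean was 4.79 ± 3.20 CPM in PP-MP and 4.66 ± 0.798 CPM in control (SD, n = 3 each), so that the means were close while the PP-MP libraries spread on both sides of the control libraries. The log2 fold change was 0.04 (SE 0.55, edgeR adjusted p = 0.983), and −0.52 without PP-MP 1. Col1a2 was at 8.17, 3.62 and 6.48 CPM in PP-MP, against 12.8, 8.53 and 9.35 CPM in control. Every PP-MP library was below every control library, by a narrow gap between PP-MP 1 and control 2. Its log2 fold change was −0.75 (SE 0.33, 95% interval −1.53 to 0.03) and missed the threshold (edgeR adjusted p = 0.373, 0.236 to 0.646 over the alternatives). Of the 32 collagens tested, 1, Col1a2, was lower without overlap, where 9.79% of all genes tested were. When CPM were scaled by library totals alone, the groups of Col1a2 overlapped, and 2.59% of all genes tested were lower without overlap.

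The type V chains, which nucleate fibrils of types I and III, and Col27a1, a fibrillar collagen known from cartilage, had fitted values above 0. Col5a1 was at 8.13, 7.26 and 5.62 CPM in PP-MP and 8.64, 6.45 and 5.20 CPM in control, with a log2 fold change of 0.05 (SE 0.25). Col5a2 was at 5.64, 2.14 and 1.83 CPM in PP-MP and 1.87, 2.17 and 1.21 CPM in control. PP-MP 1 alone stood above all control libraries for Col5a2. The log2 fold change of Col5a2 was 0.87 (SE 0.49, edgeR adjusted p = 0.471), and 0.18 without PP-MP 1. Col27a1 was at 5.55, 8.58 and 3.83 CPM in PP-MP and 1.97, 7.56 and 1.48 CPM in control. Control 2, the library with the highest ribosomal RNA share, stood with the PP-MP libraries for this gene, and the other 2 control libraries lay below all 3 of them. Its log2 fold change was 0.71 (SE 0.66, edgeR adjusted p = 0.649), and 1.81 without control 2 (edgeR adjusted p = 0.123). The sum over the 11 fibrillar genes was 60.7, 47.2 and 29.9 CPM in PP-MP and 51.9, 49.0 and 37.0 CPM in control, again with PP-MP libraries at both ends.

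**Figure D2:**
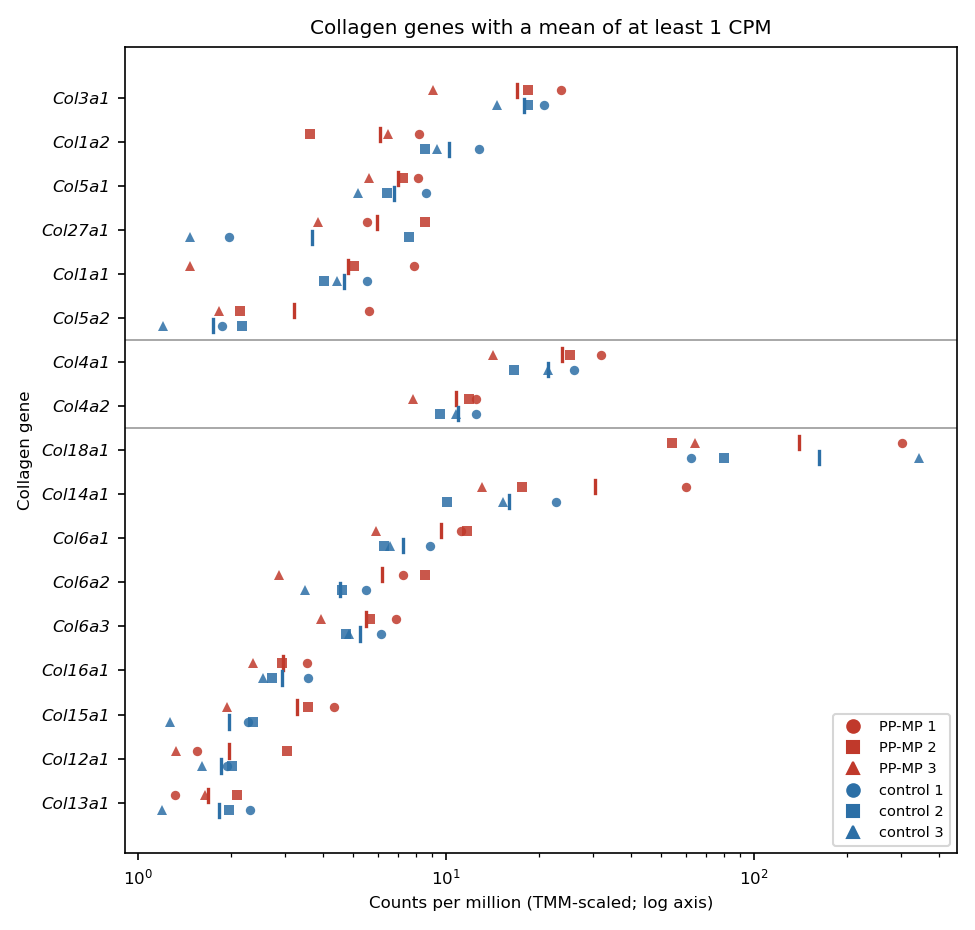
CPM of each library (x axis, log scale) for the 17 collagen genes with a mean of at least 1 CPM (y axis), with fibrillar, basement membrane and other collagens separated by grey lines. Red marks are PP-MP and blue marks control libraries, with the shape for the replicate number and a vertical bar at the group mean; Col1a2 is the gene whose red and blue points do not overlap, and Col18a1 splits into 2 libraries above 300 CPM, PP-MP 1 and control 3, and 4 libraries at 80.0 CPM or lower.

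The basement membrane collagens were led by Col4a1 and Col4a2, the chains found in nearly all basement membranes and around the sinusoids. Col4a1 was at 31.9, 25.2 and 14.2 CPM in PP-MP 1, 2 and 3, against 26.1, 16.6 and 21.4 CPM in control. Col4a2 was at 12.5, 11.9 and 7.82 CPM in PP-MP, against 12.5, 9.57 and 10.8 CPM in control. PP-MP 1 had the highest value, for Col4a2 level with control 1, and PP-MP 3 the lowest value of both genes. The log2 fold change was 0.16 for Col4a1 (SE 0.32, 95% interval −0.60 to 0.91) and −0.03 for Col4a2 (SE 0.22, 95% interval −0.56 to 0.50), with both intervals inside 2-fold (edgeR adjusted p = 0.843 and 0.966). Without PP-MP 1 the value of Col4a1 was −0.11, and without PP-MP 3 that of Col4a2 was 0.15. The chains of kidney, lung and other specialised membranes were far lower. Col4a3, Col4a4, Col4a5 and Col4a6 lay between 0.106 and 1.04 CPM in PP-MP libraries and between 0 and 0.912 CPM in control libraries, with log2 fold changes from 0.16 to 1.19, all with overlap between the diets. Col4a3 shares 5.65% of its exonic length with another gene model, and how the counting treated such reads is not known from the sources used here.

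Among the other collagens, Col18a1, a basement membrane zone collagen that carries heparan sulfate, was the most abundant collagen of these livers, at 21.5 CPM per kilobase. It was at 303, 54.0 and 64.4 CPM in PP-MP 1, 2 and 3, against 62.7, 80.0 and 344 CPM in control 1, 2 and 3. One library of each diet, PP-MP 1 and control 3, stood at 303 and 344 CPM, and the other 4 lay between 54.0 and 80.0 CPM. These rest on 30572 and 35955 reads in the high libraries and on 4549 to 6662 in the others, so counting error is small beside the gap. The log2 fold change was −0.21 (SE 0.89, 95% interval −2.34 to 1.92), −1.45 without PP-MP 1 and 1.02 without control 3. RefSeq lists 2 start windows for Col18a1, and counts per gene do not separate transcripts. The sum of all 44 collagens followed this gene, at 512, 199 and 154 CPM in PP-MP and 208, 195 and 453 CPM in control. Without Col18a1 the sum was 209, 145 and 89.4 CPM in PP-MP and 146, 115 and 109 CPM in control. Col15a1, the other multiplexin collagen, known in liver for its link to vessels, did not share the split. It was at 4.33, 3.57 and 1.95 CPM in PP-MP and 2.27, 2.37 and 1.27 CPM in control (log2 fold change 0.74, SE 0.39, edgeR adjusted p = 0.442).

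Col14a1, a fibril-associated collagen of portal fibroblasts and stellate cells, was at 60.3, 17.7 and 13.1 CPM in PP-MP and 22.7, 10.1 and 15.3 CPM in control. PP-MP 1 was more than 2-fold above every other library, and the remaining PP-MP values lay among the control values. Its log2 fold change was 0.92 (SE 0.61, edgeR adjusted p = 0.532), and −0.06 without PP-MP 1. The sum of the mesothelium markers was 22.4 CPM in PP-MP 1, against 8.58 and 3.77 CPM in PP-MP 2 and 3 and 1.93 to 7.08 CPM in control; its part in the Col14a1 value was not tested. Col16a1, which also associates with fibrils, was at 3.55, 2.94 and 2.36 CPM in PP-MP and 3.57, 2.72 and 2.54 CPM in control. Its log2 fold change was 0.00 (SE 0.25, 95% interval −0.60 to 0.60). Col12a1, a further fibril-associated collagen, was at 1.56, 3.04 and 1.33 CPM in PP-MP and 1.94, 2.02 and 1.61 CPM in control (log2 fold change 0.09, SE 0.36), with PP-MP 2 alone above the control libraries. Col13a1, a transmembrane collagen of cell junctions, was at 1.32, 2.09 and 1.65 CPM in PP-MP and 2.31, 1.97 and 1.20 CPM in control (log2 fold change −0.12, SE 0.33).

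Type VI collagen forms beaded filaments between basement membranes and fibres, from the Col6a1, Col6a2 and Col6a3 chains. Col6a1 was at 11.2, 11.7 and 5.92 CPM in PP-MP and 8.86, 6.30 and 6.6 CPM in control. Col6a2 was at 7.27, 8.53 and 2.86 CPM in PP-MP and 5.48, 4.59 and 3.49 CPM in control. Col6a3 was at 6.86, 5.66 and 3.93 CPM in PP-MP and 6.13, 4.74 and 4.86 CPM in control. In all 3 genes PP-MP 3 was the lowest library, and for Col6a1 and Col6a2 both of the other PP-MP libraries were above every control library. Log2 fold changes were 0.40 (SE 0.30), 0.46 (SE 0.41) and 0.06 (SE 0.25), with edgeR adjusted p of 0.568, 0.638 and 0.927. Without PP-MP 3 those of Col6a1 and Col6a2 were 0.66 and 0.80 (edgeR adjusted p = 0.361 and 0.357).

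The 27 collagens with means below 1 CPM rest on few reads. Of these, 15 passed the filter, all 15 with a fitted value above 0 and a median of 0.81, in a level range where 66.0% of the 5624 genes tested had a fitted value above 0 and the median was 0.28. A gene this low can pass through the higher group alone, so this count does not stand for the 27. Their summed level was 9.34, 7.29 and 5.92 CPM in PP-MP and 2.25, 6.82 and 3.65 CPM in control, with control 2 among the PP-MP values. The PP-MP libraries also had the larger number of genes with a count, given above, and its part in these values was not tested. Col25a1, a transmembrane collagen known from neurons, had 86, 10 and 30 reads in PP-MP and 7, 7 and 3 in control, or 0.852, 0.110 and 0.290 CPM against 0.0964, 0.116 and 0.0287 CPM. PP-MP 2 lay between the control libraries. Its log2 fold change was 2.41 (SE 0.90, 95% interval 0.26 to 4.56, edgeR adjusted p = 0.332), and 1.35 without PP-MP 1 (edgeR adjusted p = 0.686).

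Higher without overlap were 3 low collagens, Col11a2 and Col24a1, both fibrillar, and Col20a1, a fibril-associated collagen, where 12.2% of all genes tested were. As said above, a gene this low can pass the filter through the higher group alone. The filter therefore favours this direction among low genes, also in the counts below with a library left out. Col11a2, which in cartilage joins type XI fibrils, had 52, 39 and 39 reads in PP-MP and 0, 17 and 0 in control (log2 fold change 2.34, SE 1.37, edgeR adjusted p = 0.482). Col20a1 had 57, 59 and 73 reads in PP-MP and 0, 20 and 44 in control (log2 fold change 1.33, SE 1.0). Col24a1 had 39, 23 and 27 reads in PP-MP and 8, 12 and 21 in control (log2 fold change 0.81, SE 0.44). Without control 2 the number higher without overlap was 12 of 34 collagens tested, where 24.8% of all genes were, and without PP-MP 3 it was 9 of 32, where 19.2% of all genes were. Among the 12 genes below the filter, Col10a1, the collagen of hypertrophic cartilage, had 10, 12 and 7 reads in PP-MP and 0 in each control library. Col2a1, Col9a3, Col11a1, Col17a1, Col22a1 and Col28a1 had 0 to 25 reads per library. Col6a4, Col9a1, Col9a2, Col19a1 and Col26a1 had 0 reads in all 6 libraries, which allows up to 0.0287 CPM in control 3, the largest library, and 0.0498 CPM in control 2, the smallest, when 3 reads are taken as the upper limit, for counting error only.

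Chains that join in the same trimer or, for Col3a1 and Col1a1, belong to the main fibrillar types were compared as count ratios within each library, which do not depend on library scaling. The ratio of Col1a1 to Col1a2 was 0.962, 1.39 and 0.228 in PP-MP 1, 2 and 3, against 0.433, 0.471 and 0.472 in control 1, 2 and 3. The PP-MP libraries lay on both sides of the control libraries, which were nearly alike. On the log2 scale the ratio was −0.57 ± 1.38 in PP-MP and −1.13 ± 0.07 in control (SD, n = 3 each), a difference of 0.56 with an exact permutation p of 0.5, two-sided, where the smallest p for 3 against 3 is 0.1. Without PP-MP 3 the difference was 1.34 and without PP-MP 2 it was 0.03. The ratio of Col4a1 to Col4a2, the pair with neighbouring starts, was steadier, at 2.55, 2.13 and 1.82 in PP-MP and 2.08, 1.73 and 1.98 in control (log2 difference 0.16, exact permutation p = 0.4).

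Of the other 4 ratios, that of Col6a3 to Col6a1 did not overlap between the diets. It was 0.615, 0.484 and 0.664 in PP-MP and 0.692, 0.753 and 0.736 in control, a log2 difference of −0.32 with the smallest exact permutation p possible, 0.1 (0.6 after Benjamini-Hochberg adjustment over the 6 ratios). Col5a1 to Col5a2 was 1.44, 3.39 and 3.07 in PP-MP and 4.61, 2.97 and 4.28 in control, with PP-MP 1 the lowest (log2 difference −0.65, exact permutation p = 0.3). Col3a1 to Col1a1 and Col6a1 to Col6a2 differed by 0.08 and 0.02 on the log2 scale (exact permutation p = 0.9 for both). The ratio of Col3a1 to Col1a1 was highest in PP-MP 3, at 6.14, against 3.01 to 4.59 in the other libraries.

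**Figure D3:**
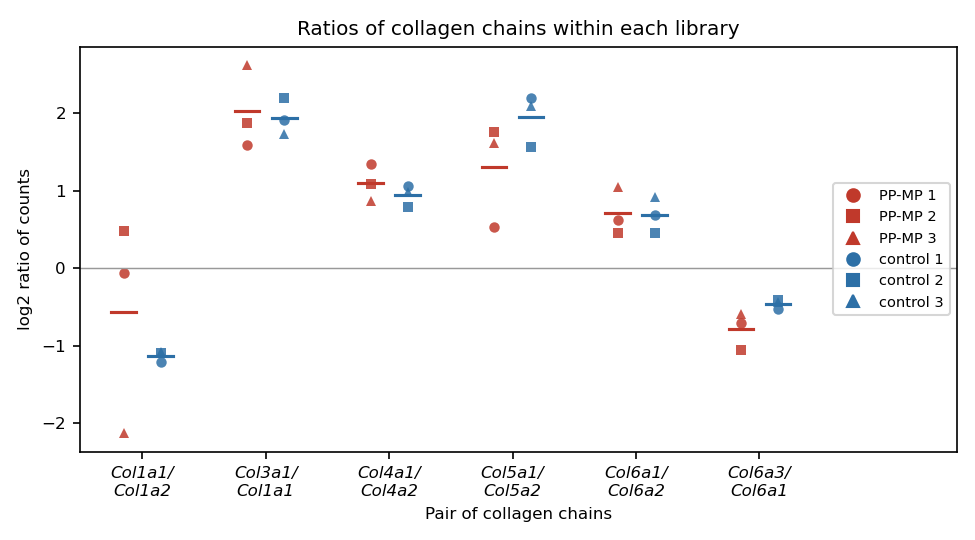
Log2 ratio of the counts of 2 collagen chains (y axis) for 6 pairs (x axis) in each PP-MP (red, left) and control (blue, right) library, with a bar at the group mean. For Col1a1/Col1a2 the PP-MP libraries run from −2.13 to 0.48, while the control libraries sit together near −1.13.

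Genes that fold, process, bind or break down collagen were counted in lists, and 0 of them passed the edgeR threshold. At an unadjusted edgeR p under 0.05 there were 2 genes of the folding list, 0 of processing, 2 of breakdown, 1 each of receptors, basement membrane partners and fibril partners, and 0 of TGF-beta signalling, beside 13.9% of all genes tested. The enzymes and chaperones of collagen folding and hydroxylation had 10 higher and 10 lower fitted values among 20 of 21 genes that passed the filter (median log2 fold change −0.02, beside 0.03 over all genes tested). Fkbp14, a prolyl isomerase of the endoplasmic reticulum, was at 4.84, 7.18 and 5.59 CPM in PP-MP and 3.33, 4.63 and 3.40 CPM in control (log2 fold change 0.63, SE 0.24, edgeR adjusted p = 0.333). Plod3, a lysyl hydroxylase, was at 15.8, 17 and 16.7 CPM in PP-MP and 22.6, 18.4 and 19.8 CPM in control (−0.30, SE 0.14), and Sec24d, which builds the vesicles that export procollagen, had a log2 fold change of −0.25 (SE 0.12). None of these 3 genes overlapped between the diets. Of the 20 genes of that list, 2 were higher and 3 lower without overlap, where 12.2% and 9.79% of all genes tested were. Plod3 shares 11.9% of its exonic length with other gene models.

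Procollagen processing and cross-linking genes had 8 higher and 2 lower fitted values among 10 of 13 (median 0.11), and all overlapped between the diets. Among members with a mean of at least 1 CPM the smallest p was that of Pcolce2, an enhancer of procollagen C-proteinase, at 3.34, 2.0 and 0.802 CPM in PP-MP and 1.28, 1.21 and 1.57 CPM in control (0.59, SE 0.50). For the lysyl oxidase relatives, which cross-link fibres, the value was 0.40 (SE 0.41) for Loxl4 and 0.28 (SE 0.43) for Loxl1. Lox itself, below 1 CPM, had 85, 28 and 17 reads in PP-MP and 5, 20 and 12 in control (1.38, SE 0.82, edgeR adjusted p = 0.488, the smallest of the list). Of the genes of collagen breakdown, 9 were fitted higher and 6 lower among 15 of 20 (median 0.06). Mmp15, a membrane-bound metalloproteinase, was at 14.9, 23.7 and 22.9 CPM in PP-MP and 33.4, 28.0 and 33.3 CPM in control (−0.62, SE 0.21, edgeR adjusted p = 0.299). Mmp14, its relative that cleaves fibrillar collagen, was at 45.5, 42.4 and 42.9 CPM in PP-MP and 38.8, 38.6 and 27.0 CPM in control (0.33, SE 0.17). These 2 did not overlap between the diets, in opposite directions. Of the 15 breakdown genes, 2 were higher and 1 lower without overlap, where 12.2% and 9.79% of all genes tested were. Ctsb, a lysosomal protease, had a log2 fold change of −0.34 (SE 0.20).

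Collagen receptors had 8 higher fitted values and 1 lower among 9 of 11 (median 0.92). Cd44, an adhesion receptor of leukocytes and other cells, was at 17.8, 9.98 and 3.75 CPM in PP-MP and 3.31, 3.77 and 3.76 CPM in control (1.54, SE 0.52, edgeR adjusted p = 0.301). Lair1, an inhibitory collagen receptor of leukocytes, was at 5.42, 2.62 and 1.27 CPM in PP-MP and 1.25, 1.84 and 0.994 CPM in control (1.19, SE 0.55). Both had their order PP-MP 1, 2, 3 in common with the Kupffer cell and neutrophil markers below, whose part was not tested. The order was not particular to them: Itga1, Itga2, Ddr1 and Ddr2 of the list also had it, while Itga10, Itgb1 and Mag did not. Itga1, a collagen-binding integrin chain, was at 31.1, 25.9 and 23.6 CPM in PP-MP and 15.9, 22.9 and 21.3 CPM in control (0.42, SE 0.19), without overlap. Of the 9 receptor genes, 2 were higher and 0 lower without overlap, where 12.2% and 9.79% of all genes tested were.

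Partners of basement membrane collagen, the laminins, nidogens and heparan sulfate proteoglycans, had 10 higher and 8 lower fitted values among 18 of 18 (median 0.04). Lama5, a laminin chain, was at 3.32, 2.55 and 1.55 CPM in PP-MP and 1.35, 1.63 and 1.08 CPM in control (0.87, SE 0.35, edgeR adjusted p = 0.348). Lamc1, the most widely used laminin gamma chain, had a log2 fold change of −0.26 (SE 0.14) without overlap. Of the 18 partner genes, 0 were higher and 1 lower without overlap, where 12.2% and 9.79% of all genes tested were. Agrn, a heparan sulfate proteoglycan, was at 4.70, 4.82 and 3.67 CPM in PP-MP and 4.04, 4.89 and 16.8 CPM in control, with control 3 apart as for Col18a1 but PP-MP 1 not. Fibril partners and matrix glycoproteins had 15 higher and 6 lower among 21 of 24 (median 0.29). Postn, a matricellular protein of remodelled tissue, was at 14.4, 35.7 and 10.3 CPM in PP-MP and 7.25, 10.8 and 8.0 CPM in control (1.21, SE 0.47, edgeR adjusted p = 0.343). Of the small leucine-rich proteoglycans, Ogn was at 1.41 (SE 0.71) and Lum at 0.56 (SE 0.30) on the log2 fold change scale. TGF-beta signalling genes, the pathway best known to drive collagen expression, had 12 higher and 8 lower among 20 of 20 (median 0.08). Of its members, Smad2 (−0.30, SE 0.16) and Ccn2 (0.71, SE 0.56) both overlapped between the diets.

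Of the lists for cells known to make collagen, the stellate cell and portal fibroblast sums overlapped between the diets. The sum for myofibroblasts and smooth muscle was below control in all 3 PP-MP libraries, by a narrow gap between PP-MP 2 and control 2. Hepatic stellate cell markers summed to 297 to 366 CPM in PP-MP and 320 to 387 CPM in control, with 6 higher and 8 lower fitted values among 14 of 14. Lrat, which stores retinol as ester in these cells, was at 19.4, 14.8 and 15.3 CPM in PP-MP and 6.31, 13.8 and 12.5 CPM in control (0.60, SE 0.30). The growth factor Hgf (1.26, SE 0.56) and the hedgehog-binding Hhip (0.61, SE 0.27) were also higher without overlap, Ngfr, a neurotrophin receptor, was lower without overlap (−0.29, SE 0.18), and none of these 4 passed the edgeR threshold. These were 3 higher and 1 lower of 14 stellate cell markers, where 12.2% and 9.79% of all genes tested were higher and lower without overlap. Pdgfrb, a receptor of stellate cells, was listed at 0 in PP-MP 2, against 6.26 and 3.58 CPM in PP-MP 1 and 3 and 2.71 to 9.60 CPM in control. Markers of myofibroblasts and smooth muscle summed to 8.96, 20.7 and 14.0 CPM in PP-MP and 24.7, 21.4 and 30.7 CPM in control, with 6 of the 6 that passed the filter fitted lower. Acta2, the smooth muscle actin of activated stellate cells, was at 1.02, 1.98 and 0.928 CPM in PP-MP and 1.52, 1.66 and 2.07 CPM in control (−0.42, SE 0.36), and Cnn1 was at 0 in PP-MP 1 and control 1. Tpm2, a tropomyosin, had the smallest p of that list (−1.20, SE 0.61, edgeR adjusted p = 0.436). It made up most of the sum in every library except PP-MP 1, and it overlapped between the diets. Its level was 1.87, 11.7 and 8.29 CPM in PP-MP and 17.6, 11.6 and 21.0 CPM in control. Of the 6 genes that passed the filter, 0 were lower without overlap. Portal fibroblast markers summed to 24.1 to 30.0 CPM in PP-MP and 29.1 to 33.1 CPM in control, with 3 higher and 3 lower fitted values among 6 of 8. Entpd2, a nucleotidase of these cells, did not overlap, at 2.38, 2.81 and 2.11 CPM in PP-MP and 5.30, 3.23 and 4.84 CPM in control (−0.88, SE 0.26, edgeR adjusted p = 0.260), and it shares 28.8% of its exonic length with another gene. Of the 6 portal fibroblast markers that passed the filter, 0 were higher and 1 was lower without overlap, beside the shares of all genes given above.

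None of the marker genes was called by edgeR, while DESeq2 called 4 of 81 at an adjusted p under 0.05, the Kupffer cell markers Timd4 (DESeq2 adjusted p = 0.00405) and Adgre1 (0.0193), the neutrophil marker S100a8 (0.00421) and the hepatocyte marker Apoa1 (0.039), all with fitted values above 0, beside 4.25% of all genes. Among the lists for other cells, the neutrophil sum did not overlap between the diets and the others did. Kupffer cell markers summed to 543, 337 and 163 CPM in PP-MP and 141 to 191 CPM in control, with 10 of 10 fitted higher. Neutrophil markers summed to 26.0, 5.32 and 3.15 CPM in PP-MP and 1.31 to 1.86 CPM in control, with 5 of 5 that passed the filter fitted higher and Camp at 0 in all libraries except PP-MP 1. Recruited macrophage markers summed to 168, 74.6 and 44.1 CPM in PP-MP and 23.6 to 49.1 CPM in control (5 higher and 2 lower of 7). Most of this sum was Lyz2, at 158, 69.8 and 41.2 CPM in PP-MP and 19.8, 43.1 and 29.4 CPM in control. Ccr2 (0.99, SE 0.56) and Ly6c2 (−0.39, SE 0.35) of that list were fitted in opposite directions. Mesothelium markers, given above, were fitted higher in 5 of 5. Sinusoidal endothelium markers summed to 123 to 197 CPM in PP-MP and 131 to 165 CPM in control (7 higher and 3 lower of 10), and cholangiocyte markers to 21.1 to 33.2 CPM in PP-MP and 27.3 to 42.4 CPM in control (2 higher and 4 lower of the 6 that passed). Adipocyte markers summed to 0.139, 6.06 and 0.242 CPM in PP-MP and 9.0, 2.39 and 12.4 CPM in control, mostly from Cfd, with Lep at 0 in every library. PP-MP 1 held the highest value of 17 of the 32 tested collagens and the lowest of 0, PP-MP 3 the highest of 1 and the lowest of 9, and control 1 the highest of 4 and the lowest of 10. The order PP-MP 1, 2, 3 of the fibrillar and basement membrane sums was also that of the Kupffer cell, recruited macrophage, neutrophil and mesothelium sums. The portal fibroblast sum (30.0, 28.9 and 24.1 CPM) and the cholangiocyte sum (33.2, 30.5 and 21.1 CPM) shared it. So did the sums for fibril partners and TGF-beta signalling. The stellate cell, myofibroblast and smooth muscle, sinusoidal endothelium, hepatocyte and adipocyte sums did not. The part of any of these cells in the collagen values was not tested.

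**Figure D4:**
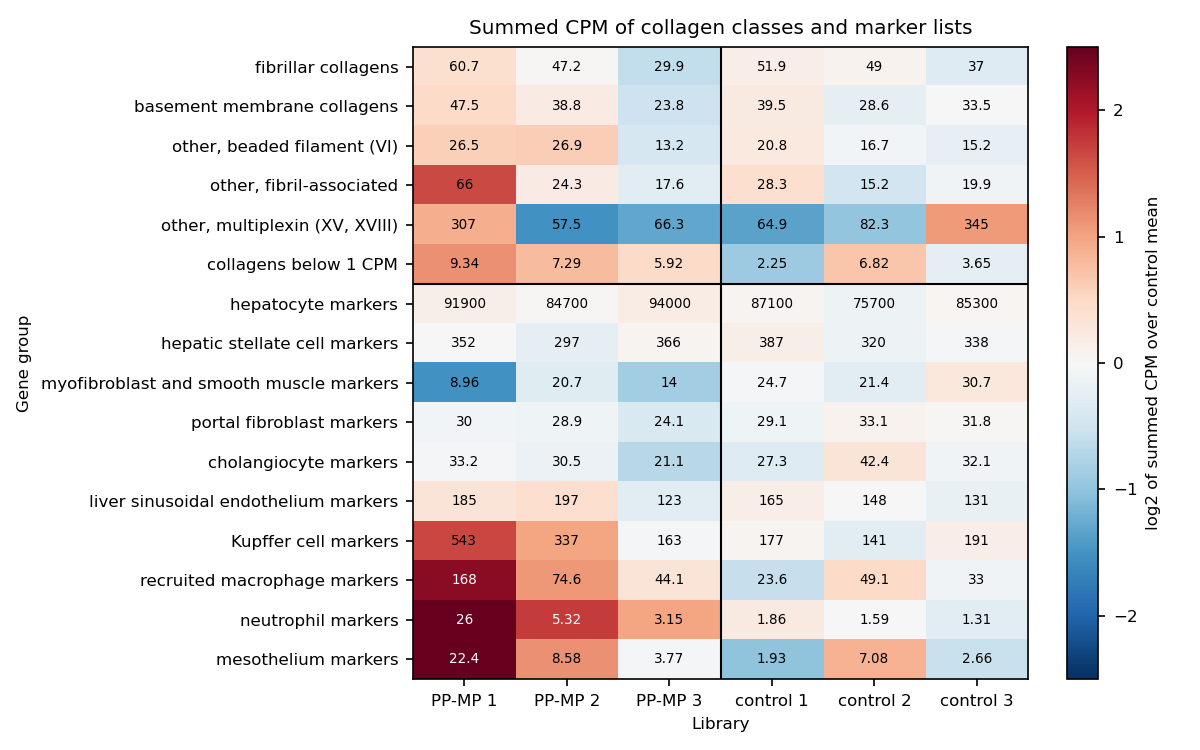
Summed CPM (numbers) of collagen classes and cell type marker lists (rows) in each library (columns), coloured by log2 of the sum over the control mean, with the colour scale capped at both ends. PP-MP 1 is high for fibril-associated collagens (66.0 CPM) and for immune and mesothelium markers, while multiplexin collagens are high in PP-MP 1 and control 3.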

How the data were processed

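The authors deposited unnormalized counts of reads for 56674 gene symbols, in a table whose 6 columns equal the deposited counts of each library. Per the labels' protocols, libraries were directional and made from poly(A)-selected RNA. Per the submitters' processing notes, bcl2fastq was used and the build was GRCm39. The sources used here name no aligner, counting tool, strand setting or annotation. The members and gene lists were chosen with earlier results of these data known.

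Genes were kept by edgeR's filterByExpr on the diet groups. TMM factors were 1.10, 1.12 and 1.03 in PP-MP 1, 2 and 3 and 0.957, 0.882 and 0.929 in control 1, 2 and 3. The main test was the quasi-likelihood F test (edgeR 4.0.16, R 4.3.3, robust, two-sided), Benjamini-Hochberg adjusted across 18284 genes, threshold 0.05. It was checked on simulated data, and SEs and 95% intervals come from it. Chain ratios were compared by exact permutation tests. Exonic lengths and overlaps come from GENCODE M21 (GRCm38), matched by symbol for all 44 collagens. Promoter windows come from RefSeq on GRCm38.p6. Collagens with a mean of at least 1 CPM, or an unadjusted p under 0.05, are described singly. Per list, up to 3 genes of smallest p with a mean of at least 1 CPM are named; 1 such gene is not reported here. Other genes named, such as Col10a1, Col11a2, Col20a1, Col24a1, Lox, Ngfr, Pdgfrb, Cnn1, Camp, Lep and Alb, were picked after their values were seen. Within a diet, libraries differed by far more than sampling noise (chi-square divided by its degrees of freedom, 154 to 928). Same-numbered libraries of the 2 diets did not deviate together (correlations −0.0662, −0.0872 and 0.0470). Alternatives were DESeq2 size factors, library totals, no count filter, a filter at a mean of 1 CPM, DESeq2 1.42.0, limma-voom (limma 3.58.1), replicate number as a block, a threshold of 0.1 and leaving out each library. Leaving out control 2 and PP-MP 1 together was chosen after seeing the data. Tables and figures used Python 3.11.15, pandas 2.3.3 and matplotlib 3.10.9.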

Additional observations from a re-analysis of the deposited data

How the results depend on the processing

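Under every alternative run, 0 collagens and 0 genes of the pathway lists were called; of the cell type markers, 4 were called with DESeq2 and 0 under the other alternatives. The number called among all genes was 2 in the main test, 1 with library totals, 777 with DESeq2, 1 with limma-voom, 0 with the replicate block and 0 to 92 with 1 library left out, with 92 without control 2. The replicate block called 0 collagens. The libraries share only a replicate number, so this is no paired design. The number of collagens higher without overlap, 3 in the main test, was 0 with a filter at a mean of 1 CPM (10.7% of all genes). It was 3 to 12 with 1 library left out (15.9% to 24.8% of all genes). Without control 2 and PP-MP 1 it was 10 of 31 (29.0% of all genes). The number lower without overlap, 1 in the main test, was 0 with library totals, no filter or a filter at a mean of 1 CPM. Of all genes, 2.59%, 5.51% and 11.1% were lower without overlap under these 3 settings. With 1 library left out the number was 0 to 2 (12.0% to 19.3% of all genes). The median log2 fold change over the tested collagens, 0.46 in the main test, was 0.72 with library totals (which moved the median of all genes by 0.23), 0.11 with a filter at a mean of 1 CPM, 0.06 over members of that level in the main fit, and 0.23 to 0.69 with 1 library left out, lowest without PP-MP 1. Of 251 log2 fold changes of 18 named collagens over the alternatives, 39 had the opposite sign to the main value, none of them called, and 7 of the 18 genes never did. With library totals the sign turned for Col13a1 (0.12), Col18a1 (0.03), Col3a1 (0.17) and Col4a2 (0.21). It turned for Col4a2 with no filter (0.02) and with a filter at a mean of 1 CPM (0.01), for Col16a1 with DESeq2 size factors and the DESeq2 test (−0.01 in both), for Col1a1 with limma-voom (−0.26), and with the replicate block for Col12a1 (−0.00), Col16a1 (−0.00) and Col1a1 (−0.22). Without control 2 and PP-MP 1 it turned for Col13a1 (0.10), Col14a1 (−0.30), Col16a1 (−0.20), Col1a1 (−0.61), Col4a1 (−0.26), Col5a1 (−0.10) and Col6a3 (−0.19). With 1 library left out, the log2 fold change ranged from −0.36 to 0.31 for Col12a1, −0.33 to 0.11 for Col13a1, −0.06 to 1.29 for Col14a1, −0.15 to 0.19 for Col16a1, −1.45 to 1.02 for Col18a1, −0.52 to 0.47 for Col1a1, −0.39 to 0.23 for Col3a1, −0.11 to 0.42 for Col4a1, −0.16 to 0.15 for Col4a2, −0.08 to 0.29 for Col5a1 and −0.13 to 0.25 for Col6a3. The log2 ratio difference ranged from −0.22 to 0.30 for Col3a1 to Col1a1 and from −0.15 to 0.14 for Col6a1 to Col6a2. Beyond leaving out libraries, the cause of these changes was not tested. With 3 libraries a diet, a 2-fold change in at least 1 direction lay inside the interval for 24 of the 32 tested collagens. A change of that size is therefore not excluded for most of them.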
